A study of Mus musculus with 16 samples.

Results

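Laminins are the heterotrimeric glycoproteins, each of an alpha, a beta and a gamma chain, from which basement membranes are assembled, and integrins are the alpha-beta receptors through which cells hold on to them. An integrin's pair of chains sets its ligand: alpha 3 and alpha 6 chains bind laminins, alpha 1 and alpha 2 chains bind collagens and some laminins, and the alpha v chain binds matrix proteins that carry an RGD motif. In the liver, bile ducts and vessels rest on a continuous basement membrane, whereas hepatocytes face the sinusoids without one. The genes described here were all array probes, controls left out, whose gene name was that of a laminin chain (Lama, Lamb or Lamc with a digit) or began with Itga or Itgb. They numbered 41 of the 28030 gene names on the array: 10 laminin chains, 17 integrin alpha chains, 9 integrin beta chains (with the integrin beta 2-like gene Itgb2l) and 5 genes whose names match but which are no integrin chains (Itgb1bp1, Itgb1bp2, Itgb1bp3, Itgb3bp and Itgbl1). Lamb1 stood on the array under an older name and was therefore outside the 41; its values are given where its partners are described.

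The RNA came from liver cells of c129/S3 mice, sorted for the surface antigen MIC1-1C3 (M) and for CD133, the protein of Prom1. M+133+ cells carried both antigens and M-133- cells neither, so that the latter could hold any cell type without these antigens that the preparation and the gate let through. Cells with a single antigen were in neither sort. Livers were untreated or came from mice given 0.1% DDC (3,5-diethoxycarbonyl-1,4-dihydrocollidine, a porphyrin-forming compound that elicits a ductular reaction) in the diet for 2 weeks. All mice had the same strain and base diet, no genetic change is named, and age and the number of mice per sample are not given in the sources used here. Untreated livers gave 4 M+133+ and 2 M-133- samples, and DDC livers gave 4 of either sort, all described by the submitters as biological replicates. The 14 samples lay on 16 one-colour Agilent arrays, because the first M+133+ and the second M-133- sample of untreated livers were each hybridised again. Cells were freed with Accutase, sorted into lysis reagent, and their RNA was amplified to cDNA before labelling. The comparisons asked how the sorted progenitor candidates differ from liver cells with neither antigen, and how each sort differs after DDC.

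Every level below is the log2 processed signal of a gene's brightest probe minus the 75th percentile of its array, and every difference is between group means of these levels with its moderated standard error (SE). Levels of different genes come from different probes and were not set against each other. A gene was called at a limma adjusted p under 0.05 over all 23312 genes tested. Of the 41 genes, 40 passed the filter on dim probes, and Itgb1bp2 did not. That percentile was 602.8 to 2732 in intensity over the arrays, and the 2 lowest values, 602.8 and 705.9, were of M-133- untreated arrays. Of the probes, 69.7% to 77.3% exceeded background clearly ("well above background" in the scanner's flag) on M+133+ and 60.3% to 75.9% on M-133- arrays. The 2 M-133- untreated samples limit every comparison they enter, and the repeat arrays of the second of them differed by a median of 1.54 over the 40 genes, against 0.50 for M+133+ untreated sample 1. Prom1 read 1.13 to 1.82 in M+133+ untreated, 0.81 to 2.23 in M+133+ DDC, -8.34 and -7.74 in M-133- untreated and -8.63 to -3.52 in M-133- DDC samples, and the sorts did not overlap in this gene of the sorting antigen.

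Marker lists of 10 bile duct and 10 hepatocyte genes, and lists of 12 endothelial and 13 stellate cell and fibroblast genes, separated the sorts. The bile duct list averaged 2.78 to 4.81 per M+133+ sample and -3.61 to -1.02 per M-133- sample. The hepatocyte list averaged -2.66 to 1.08 in M+133+ and 4.43 to 5.38 in M-133- samples. Endothelial genes averaged -2.20 to -0.42 in M+133+ untreated, -4.54 to -2.46 in M+133+ DDC, 3.81 and 4.25 in M-133- untreated and 0.14 to 2.81 in M-133- DDC samples. Stellate cell and fibroblast genes averaged -3.79 to -0.96 in M+133+, 0.59 and 1.08 in M-133- untreated and 2.76 to 4.28 in M-133- DDC samples. Every gene of these 4 lists was well above background on at least 1 array of each group. In such bulk samples fewer cells of a type and less RNA per cell cannot be told apart.

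Laminin and integrin genes were called between the sorts in both directions. In untreated livers 5 of the 40 were higher in M+133+ cells (among them Lamb3, Itga3, Itgb4 and Itgb6; 3.62% of all genes were called higher) and 4 were lower (Lama2, Itga8, Itga9 and Itgbl1; 5.17% of all genes), which made 9 of 40 called against 8.79% of all genes. After DDC 10 were higher (6.43% of all genes) and 7 lower (6.48%), which made 17 of 40 against 12.9% of all genes. All 9 called in untreated livers were called in the same direction after DDC. The others higher after DDC were Lama3, Lama5, Itga2, Itga6 and Itgb8, and the others lower were Lama1, Itga1 and Itgb1bp1. By role, ligand chains had 3 of 10 called in untreated and 6 of 10 in DDC livers, and receptor chains 5 of 26 and 9 of 26. The median difference of the 10 laminin chains was 0.49 in untreated and 1.22 in DDC livers, that of the 26 integrin chains was 0.05 and 0.66, and that of all genes was -0.07 and 0.31. Bile duct markers were higher in M+133+ cells alongside these chains, 9 of 10 in each treatment, and hepatocyte markers lower, 9 of 10 in each; their part in the differences was not tested.

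**Figure D1:**
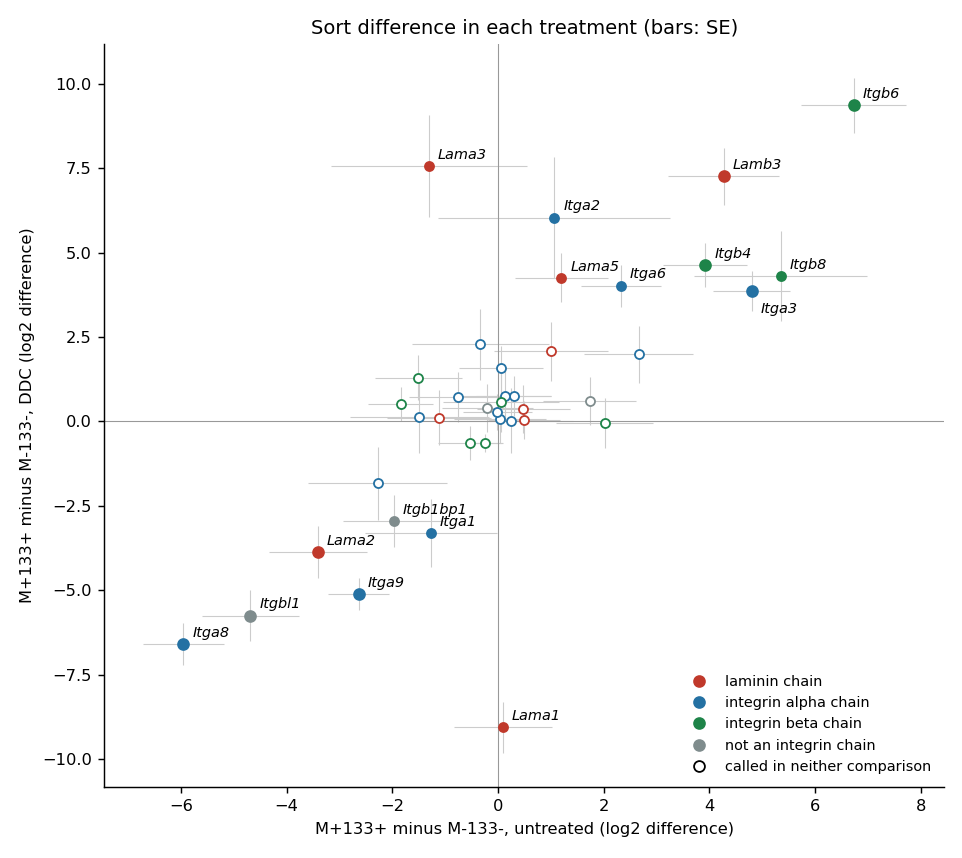
Log2 difference of M+133+ minus M-133- cells in untreated livers (horizontal) against the same difference in DDC livers (vertical) for 39 of the genes tested, with SE bars; filled points were called in at least 1 of the 2 comparisons and are named. Itgb6 and Lamb3 lie at the upper right, Itga8 and Itgbl1 at the lower left, and Lama1 and Lama3 are far from 0 in the DDC comparison only.

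Lama3 and Lamb3 are chains of the laminin trimer of hemidesmosomes, the junctions that fix epithelia to their basement membrane, and alpha 6 beta 4 is the integrin of those junctions. The probes behind Lamb3, Itgb4 and Itgb6 are shown because these genes were called higher in M+133+ cells in both treatments. Each is a 60-base oligo, of which the first 30 bases are printed 5′ to 3′ as deposited with the array files, with no base marked.
Lamb3: aatgaaagacatggagtcagaactgcttcg
Itgb4: cataaagtgggtagaggtgatacaaggtct
Itgb6: ttgtgttattgctgaaatgagatgttagga
On mouse build mm9 the array annotation puts these probes at chr1:195167088-195167147 on the plus strand for Lamb3, chr11:115869557-115869616 on the plus strand for Itgb4 and chr2:60436536-60436595 on the minus strand for Itgb6. The exon or untranslated region they lie in was not looked up here.

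Lamb3, the beta chain of that trimer, read 1.29, 2.08, -1.54 and -0.80 in M+133+ untreated and -4.57 and -3.46 in M-133- untreated samples. After DDC it read 3.25, 1.50, 2.41 and 3.23 in M+133+ and -5.66, -3.11, -5.37 and -4.49 in M-133- samples. No M-133- sample reached an M+133+ sample of its treatment. The difference was 4.27 (SE 1.05, adjusted p = 0.0186) in untreated and 7.25 (SE 0.85, adjusted p = 5.75e-05) in DDC livers. The untreated call was lost without M+133+ untreated sample 1 (adjusted p = 0.0537), M-133- untreated sample 1 (0.191) or M-133- untreated sample 2 (0.0619).

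Lama3, the alpha chain, was not apart between the sorts of untreated livers. Its levels were -0.92, -0.44, -5.29 and -5.82 in M+133+ and -3.63 and 0.02 in M-133- samples, which overlapped. After DDC they were 3.64, 2.12, -3.22 and -1.08 in M+133+ samples, and no M-133- array was well above background (-7.42, -7.04, -7.66 and -6.65). The untreated difference was -1.31 (SE 1.85, adjusted p = 0.807). In DDC livers it was 7.56 (SE 1.51, adjusted p = 0.00346), or at least 117-fold on this probe and scale. That bound was set against the dimmest signal called well above background on each array. The second Lama3 probe gave only 1.09 there and normexp gave 4.97 (adjusted p = 0.00862), both below that bound. With the array slide as a fixed block the call was lost (adjusted p = 0.0662). The change of the sort difference with DDC, 8.87 (SE 2.39), did not pass over all genes (adjusted p = 0.183).

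Lama5, the alpha chain of epithelial and vascular laminins in the adult, was higher in M+133+ cells after DDC. It read 1.62, 1.01, 1.45 and 1.08 in M+133+ untreated, -1.63 and 1.81 in M-133- untreated, 3.51, 1.60, 2.34 and 2.32 in M+133+ DDC and -1.55, -2.49, -0.54 and -2.66 in M-133- DDC samples. Only the DDC groups were apart, by 4.25 (SE 0.72, adjusted p = 0.00109); the untreated difference was 1.20 (SE 0.88, adjusted p = 0.547). The repeat arrays of M-133- untreated sample 2 gave 4.43 and -0.81 for this gene, the widest gap of the 40 genes, and the array annotation places only 15 bases of genome for its probe. With the slide as a fixed block the DDC difference was 2.49 and no longer called (adjusted p = 0.393).

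**Figure D2:**
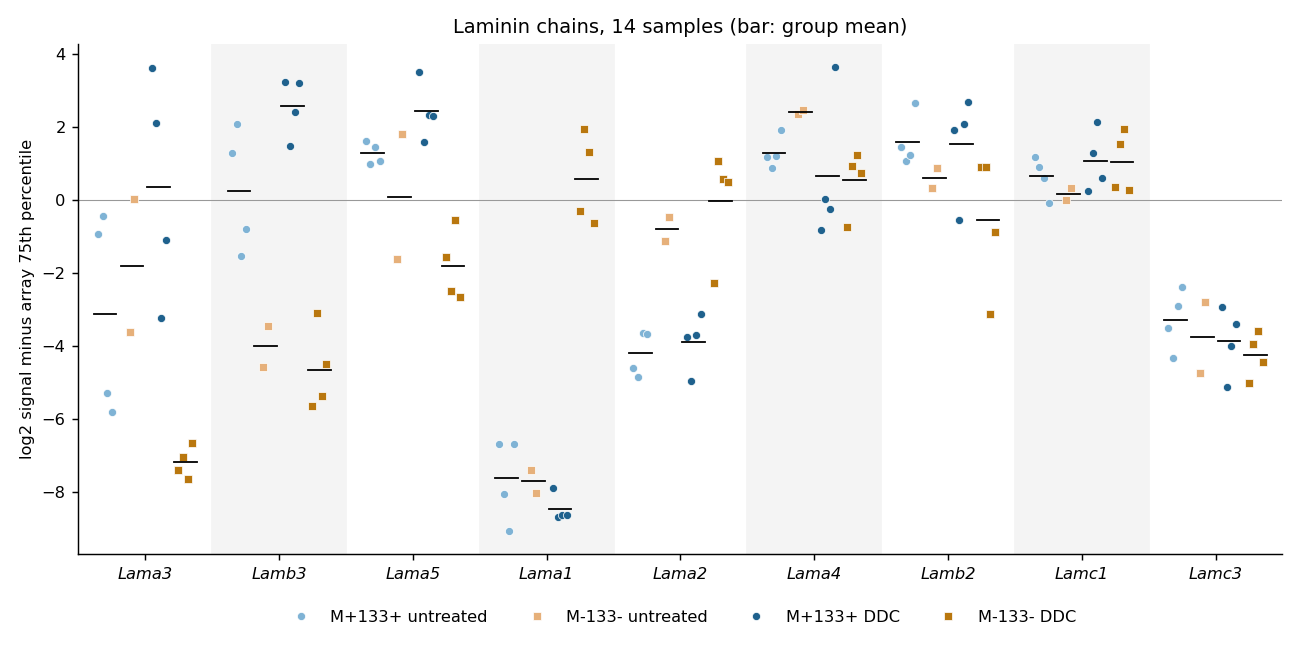
Level of 9 laminin chains (log2 signal minus the array's 75th percentile) in each of the 14 samples, by group; points are samples and bars are group means. Lamb3 and Lama2 lie apart by sort in both treatments, and Lama1 is high in the 4 M-133- DDC samples alone.

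Lama1 was the only laminin chain whose DDC difference was called, as a rise in M-133- cells. It forms, with beta 1 and gamma 1 chains, the laminin of early embryonic basement membranes. It read -0.30, 1.96, 1.34 and -0.63 in M-133- DDC samples, all well above background. Elsewhere it was -7.41 and -8.03 in M-133- untreated, -6.69, -8.05, -9.09 and -6.70 in M+133+ untreated and -7.89, -8.69, -8.63 and -8.65 in M+133+ DDC samples. Of those other 12 arrays only 1, the first of M+133+ untreated sample 1, read it well above background. The 4 high samples stood far above all others.

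In M-133- cells the Lama1 difference between DDC and untreated livers was 8.31 (SE 0.93, adjusted p = 0.000481), or at least 98.4-fold on this scale, and it was the one laminin or integrin gene of 40 called there (1.03% of all genes were called, 0.613% as higher and 0.412% as lower). It was 7.12 and 10.43 within the 2 slides that held both treatments. Between the sorts after DDC it was -9.06 (SE 0.76, adjusted p = 3.56e-06), or at least 161-fold higher in M-133- cells on this scale. DDC changed Lama1 differently in the sorts, with an interaction of -9.15 (SE 1.20, adjusted p = 0.00436), again the one gene of 40 (0.257% of all genes were called, 0.0601% with a positive and 0.197% with a negative interaction). With a normexp background correction, which adds an offset and draws dim signals together, these values were far smaller: 3.70 for DDC in M-133- cells (adjusted p = 0.0258), -4.78 between the DDC sorts (adjusted p = 4.49e-05) and -3.66 for the interaction, which was not called (adjusted p = 0.146). The bounds above therefore hold for the main scale alone. Stellate cell and fibroblast markers averaged 0.59 and 1.08 in M-133- untreated and 2.76 to 4.28 in M-133- DDC samples, with 2 of 13 called higher and all 13 differences positive; their part in the Lama1 result was not tested. One probe carried Lama1 and is shown by its first 30 bases, since this result rests on it.
Lama1: tcttgtcaaggaaggttacaaagttcgatt
It lies at chr17:68167016-68167978 on the plus strand on mm9, a span of 963 bases for a 60-base oligo.

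The chains that can join Lama1 were measured too. Lamb1, outside the 41 genes, read 2.24, 2.64, 2.21 and 2.26 in M-133- DDC samples, above all other samples (-1.53 to 0.87). After DDC its level was lower in the M+133+ sort, by -2.66 (SE 0.57, adjusted p = 0.00568), while its DDC difference in M-133- cells, 2.75 (SE 0.70), was not called (adjusted p = 0.0818). Lamc1, the gamma chain of most laminins, overlapped between all groups. Its samples were at 1.18, 0.91, 0.61 and -0.07 in M+133+ untreated, 0.01 and 0.32 in M-133- untreated, 0.25, 1.30, 2.14 and 0.60 in M+133+ DDC and 0.36, 1.53, 1.96 and 0.29 in M-133- DDC livers. Its 4 differences between groups lay between 0.04 and 0.87, and none was called.

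Lama2, the alpha chain of the laminin that surrounds muscle and mesenchymal cells, was on the M-133- side. It read -4.61, -4.87, -3.65 and -3.68 in M+133+ untreated, -1.13 and -0.46 in M-133- untreated, -3.75, -4.97, -3.71 and -3.14 in M+133+ DDC and -2.28, 1.09, 0.57 and 0.49 in M-133- DDC samples. The sorts stayed apart in each treatment. The difference was -3.41 (SE 0.93, adjusted p = 0.0338) in untreated and -3.86 (SE 0.76, adjusted p = 0.00321) in DDC livers. Of its 3 probes, 1 gave -4.65 and -4.45, and another 0.25 and 0.27. The untreated call was lost without either M-133- sample (adjusted p = 0.139 without sample 1 and 0.221 without sample 2), without M+133+ sample 1 (0.0793) or 2 (0.0789), with the first repeat arrays alone (0.0852) and with normexp (0.051). The DDC call was lost with the slide as a fixed block (0.0566).

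Lama4, Lamb2 and Lamc3 were not called. Lama4, the alpha chain of vessel walls, read 1.18, 0.87, 1.22 and 1.93 in M+133+ untreated, 2.37 and 2.48 in M-133- untreated, -0.82, 0.04, -0.24 and 3.65 in M+133+ DDC and -0.75, 0.93, 1.25 and 0.74 in M-133- DDC samples. Both M-133- untreated samples were above the M+133+ ones, yet the difference of -1.12 (SE 0.99) had an adjusted p of 0.64. The other Lama4 probes, not used in the tests, set the untreated sorts apart in the same direction. The dimmest of them read -6.14 to -3.83 in M+133+ against -1.46 and -2.24 in M-133- untreated samples. Lamb2, an alternative beta chain, read 1.47, 1.07, 1.23 and 2.67 in M+133+ untreated, 0.32 and 0.88 in M-133- untreated, 1.93, -0.55, 2.09 and 2.68 in M+133+ DDC and 0.92, 0.91, -3.11 and -0.87 in M-133- DDC samples. Its DDC sort difference was 2.07 (SE 0.88, adjusted p = 0.149). Lamc3, a gamma chain of few tissues, ran from -4.33 to -2.38 in M+133+ untreated, -4.74 and -2.78 in M-133- untreated, -5.12 to -2.95 in M+133+ DDC and -5.01 to -3.59 in M-133- DDC samples (medians -3.21, -3.76, -3.71 and -4.19), with overlap throughout on this probe. Its dimmer probes, not used in the tests, did not overlap between the untreated sorts. They read -4.23 to -1.11 and -7.07 to -2.84 in M+133+ against -5.49 to -5.37 and -8.14 to -7.49 in M-133- samples. After DDC the sorts overlapped on them.

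Among the laminin receptors, Itgb4 and Itga3 were higher in M+133+ cells in both treatments and Itga6 after DDC, while Itgb1, the partner of the alpha 3 chain, was not called. Itgb4, the hemidesmosomal beta chain, read 1.44, 2.35, 0.80 and 1.72 in M+133+ untreated, -2.69 and -2.00 in M-133- untreated, 3.65, 3.00, 3.17 and 3.57 in M+133+ DDC and 0.71, -1.26, -2.75 and -1.85 in M-133- DDC samples. The sorts did not overlap. The differences were 3.92 (SE 0.80, adjusted p = 0.00603) and 4.63 (SE 0.65, adjusted p = 0.00025), and all 3 probes agreed in sign. Without M-133- untreated sample 1 the untreated call was lost (adjusted p = 0.0849).

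Itga3, whose protein pairs with beta 1 to bind the hemidesmosomal and the Lama5-containing laminins, read 2.19, 1.36, 1.12 and 1.67 in M+133+ untreated and -2.95 and -3.48 in M-133- untreated samples. After DDC it read 3.12, 1.79, 2.93 and 2.94 in M+133+ and -2.89, -0.52, -0.42 and -0.84 in M-133- samples. Groups of a treatment did not overlap, and the differences were 4.80 (SE 0.73, adjusted p = 0.000872) and 3.86 (SE 0.60, adjusted p = 0.000542). Its 3 probes gave 4.80 to 6.02 in untreated and 3.86 to 7.74 in DDC livers.

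Itga6, the alpha chain that pairs with beta 4 in hemidesmosomes and with beta 1 elsewhere, read 2.08, 1.76, 0.80 and 2.09 in M+133+ untreated, -1.20 and -0.08 in M-133- untreated, 4.04, 2.37, 1.59 and 3.13 in M+133+ DDC and -0.74, -0.77, -0.92 and -2.53 in M-133- DDC samples. The groups were apart in both treatments, but only the DDC difference of 4.02 (SE 0.62, adjusted p = 0.000534) was called. In untreated livers it was 2.32 (SE 0.76, adjusted p = 0.0765), and 1 of the 3 probes had the opposite sign there (-1.80).

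Itgb1, the beta chain shared by most matrix-binding integrins, read 3.84, 4.34, 4.24 and 4.05 in M+133+ untreated, 4.67 and 4.06 in M-133- untreated, 4.03, 4.14, 3.99 and 3.21 in M+133+ DDC and 4.82, 4.45, 4.23 and 4.37 in M-133- DDC samples. Its differences between sorts were -0.24 (SE 0.33, adjusted p = 0.794) and -0.63 (SE 0.27, adjusted p = 0.153). The unadjusted 95% intervals, -0.95 to 0.46 and -1.20 to -0.05, do not reach the size of the Itgb4 difference in either treatment. Itga7, a laminin receptor chain of muscle, read -1.12, -1.40, -1.04 and -0.63 in M+133+ untreated, -1.14 and -0.93 in M-133- untreated, -0.15, -1.26, -1.22 and -1.42 in M+133+ DDC and -1.49, -1.98, -0.87 and -0.85 in M-133- DDC samples. All 4 groups overlapped.

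The alpha chains of the collagen receptors that also bind laminins, Itga2 and Itga1, went opposite ways after DDC. Itga2 read -4.42, -0.45, -7.65 and -6.84 in M+133+ untreated, -7.83 and -3.98 in M-133- untreated, -1.18, 0.36, 1.38 and 0.87 in M+133+ DDC and -0.30, -5.40, -8.37 and -8.65 in M-133- DDC samples. The DDC difference was 6.04 (SE 1.79, adjusted p = 0.0377) although M-133- sample 1 lay within the M+133+ range. That sample read -8.43 on the other Itga2 probe, which was not used in the tests. On it the DDC sorts did not overlap, at -2.02 to -0.46 in M+133+ and -8.43 to -7.37 in M-133- samples. They differed by 7.05, with no M-133- DDC sample well above background. Leaving out any one DDC sample other than M-133- sample 1 lost the call (adjusted p from 0.0508 to 0.106), as did the slide as a fixed block (0.207), and normexp gave 3.83 (0.0258).

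Itga1, which is also known from stromal and endothelial cells, read -1.72, -0.59, 2.15 and -2.46 in M+133+ untreated, 0.74 and 0.49 in M-133- untreated, -0.45, -2.55, -1.55 and -3.16 in M+133+ DDC and 0.31, 0.41, 3.85 and 0.93 in M-133- DDC samples. The DDC groups did not overlap and differed by -3.30 (SE 1.01, adjusted p = 0.0442), with all 4 probes negative. That call was lost in 9 of the 14 fits that left out 1 sample (highest adjusted p = 0.12, without M+133+ DDC sample 4) and with the slide as a fixed block (0.191). In untreated livers the sorts overlapped on the probe used, with a difference of -1.27 (SE 1.24, limma adjusted p = 0.689). The other probes, which were not used in the tests, gave -4.14, -2.87 and -3.71 there, and on each of them the untreated sorts were apart.

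**Figure D3:**
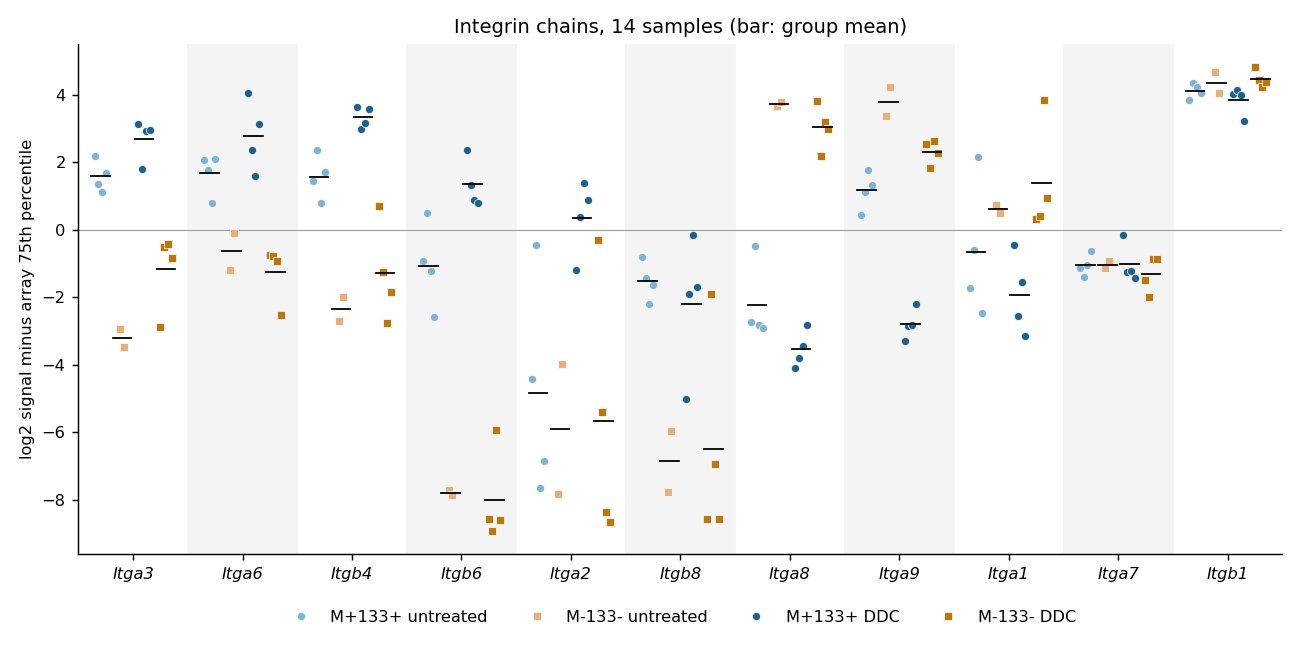
Level of 11 integrin chains (log2 signal minus the array's 75th percentile) in each of the 14 samples, by group; points are samples and bars are group means. Itga3, Itga6, Itgb4 and Itgb6 are high in M+133+ samples, Itga8 and Itga9 are high in M-133- samples, Itga7 overlaps between all groups, and Itgb1 stays between 3.21 and 4.82.

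Of the chains that pair with alpha v, Itgb6 had the largest sort difference of all 40 genes after DDC. Beta 6 is an epithelial chain whose integrin binds and activates latent TGF-beta, as does that of beta 8. Itgb6 read -0.94, 0.51, -1.22 and -2.59 in M+133+ untreated, -7.72 and -7.85 in M-133- untreated, 2.38, 1.33, 0.90 and 0.80 in M+133+ DDC and -8.58, -8.93, -5.93 and -8.61 in M-133- DDC samples. It was well above background on every M+133+ array, on none of the 3 M-133- untreated arrays and on 1 of the 4 M-133- DDC arrays. The difference was 6.73 (SE 1.00, adjusted p = 0.000703), or at least 31.3-fold, in untreated and 9.36 (SE 0.81, adjusted p = 4.99e-06) in DDC livers. All 3 probes were positive in both, from 3.51 to 6.73 and from 4.27 to 9.36. With normexp the untreated difference was 2.43, below that bound, and was not called (adjusted p = 0.0716), and the DDC difference was 5.97 (adjusted p = 9.1e-06).

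Itgb8 read -0.79, -1.43, -2.21 and -1.64 in M+133+ untreated, -7.78 and -5.95 in M-133- untreated, -5.02, -1.91, -0.17 and -1.71 in M+133+ DDC and -8.57, -1.90, -6.95 and -8.56 in M-133- DDC samples. The untreated groups were apart by 5.35 (SE 1.63), with an adjusted p of 0.0559. The DDC groups overlapped, and their difference of 4.29 (SE 1.33, adjusted p = 0.0463) held as a call in only 2 of the 14 fits that left out 1 sample, those without M+133+ DDC sample 1 or M-133- DDC sample 2; in the other 12 the adjusted p ran from 0.0564 to 0.129. The slide as a fixed block gave an adjusted p of 0.275, and normexp a difference of 2.05 (adjusted p = 0.0943). All 3 probes were positive after DDC, from 1.25 to 4.29. On 1 dimmer probe, not used in the tests, the DDC sorts did not overlap. It read -6.20 to -3.43 in M+133+ and -8.65 to -8.17 in M-133- DDC samples, with none of the latter well above background. On the other dimmer probe the DDC sorts overlapped.

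Itgav, the alpha v chain itself, was named after its values were seen. It read 1.07, 2.18, 0.14 and 0.55 in M+133+ untreated, -2.30 and -1.05 in M-133- untreated, 5.78, 3.21, 1.93 and 4.18 in M+133+ DDC and 1.01, 0.66, 3.99 and 1.47 in M-133- DDC samples. No difference was called: the sort differences were 2.66 (SE 1.03, adjusted p = 0.15) and 1.99 (SE 0.84, adjusted p = 0.147), and the DDC differences 2.79 (SE 0.84, adjusted p = 0.197) in M+133+ and 3.46 (SE 1.03, adjusted p = 0.146) in M-133- cells. On 1 dimmer Itgav probe, not used in the tests, the M-133- mean was lower after DDC. It read -1.99 and -5.01 in M-133- untreated and -8.47 to -3.39 in M-133- DDC samples. The other Itgav probes had higher M-133- means after DDC. The other partners of alpha v, Itgb5 (sort differences 2.02 and -0.05) and Itgb3 (-0.52 and -0.64), were not called either. A dimmer Itgb3 probe, not used in the tests, set the sorts apart in both treatments. It read -7.45 to -1.38 in M+133+ untreated against 4.89 and -0.47 in M-133- untreated samples. After DDC it read -8.78 to -2.84 in M+133+ and 1.94 to 4.27 in M-133- samples. Some M+133+ samples were not well above background on it.

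On the M-133- side stood Itga8 and Itga9. Alpha 8 is a beta 1 partner that binds nephronectin and other RGD ligands and is known from stellate and smooth muscle cells, and alpha 9 is a beta 1 partner that binds tenascin-C and osteopontin. The first 30 bases of their probes, in the same form as above, are shown because these are the integrin chains that were lower in M+133+ cells in both treatments.
Itga8: agtcaaaacatggtttcccatggtctcaac
Itga9: atagccgatctgcttttcagtctattaaag
They lie at chr2:12028634-12028693 on the minus strand for Itga8 and at chr9:118809765-118809824 on the plus strand for Itga9, on mm9.

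Itga8 read -2.72, -0.47, -2.83 and -2.91 in M+133+ untreated, 3.67 and 3.77 in M-133- untreated, -4.09, -3.80, -3.44 and -2.83 in M+133+ DDC and 3.83, 2.20, 3.20 and 2.98 in M-133- DDC samples. The sorts were far apart in both treatments. The differences were -5.95 (SE 0.77, adjusted p = 0.000273, 61.8-fold) and -6.59 (SE 0.63, adjusted p = 1.05e-05, 96.4-fold), and its 3 probes were all negative. Stellate cell and fibroblast genes were higher in M-133- cells as well, with 6 of 13 called in untreated and 11 of 13 in DDC livers. Of all genes 5.17% and 6.48% were called in that direction. The part of the stellate cell and fibroblast genes in the Itga8 and Lama2 differences was not tested.

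Itga9 differed by sort and was the only gene of the 40 whose DDC difference was called in M+133+ cells. It read 0.45, 1.12, 1.78 and 1.32 in M+133+ untreated, -3.29, -2.85, -2.83 and -2.19 in M+133+ DDC, 3.36 and 4.24 in M-133- untreated and 2.53, 1.83, 2.62 and 2.27 in M-133- DDC samples. No pair of groups that was compared overlapped. In M+133+ cells it fell by 3.96 (SE 0.47, adjusted p = 0.00361, 15.5-fold); 0.24% of all genes were called in that comparison, 0.0944% as lower and 0.146% as higher. The difference was -4.52 and -3.83 within the 2 slides that held both treatments, and the second probe gave -6.78. In M-133- cells the difference of -1.49 (SE 0.57) was not called (adjusted p = 0.272), and the interaction of -2.47 (SE 0.74) did not pass (adjusted p = 0.244), so that a difference in response between the sorts was not shown.

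Between the sorts Itga9 differed by -2.63 (SE 0.57, adjusted p = 0.00954) in untreated and -5.10 (SE 0.47, adjusted p = 7.39e-06) in DDC livers. The untreated call was lost without M-133- untreated sample 2 (adjusted p = 0.131). Endothelial marker genes went the same way as Itga9: their mean over the 12 genes was -2.20 to -0.42 in M+133+ untreated and -4.54 to -2.46 in M+133+ DDC samples, 11 of the 12 differences were negative and none was called, and between the sorts 11 of 12 were called lower in M+133+ cells in each treatment. Of all genes 5.17% were called lower in M+133+ cells of untreated livers and 6.48% after DDC. The part of the endothelial genes in the Itga9 result was not tested.

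**Figure D4:**
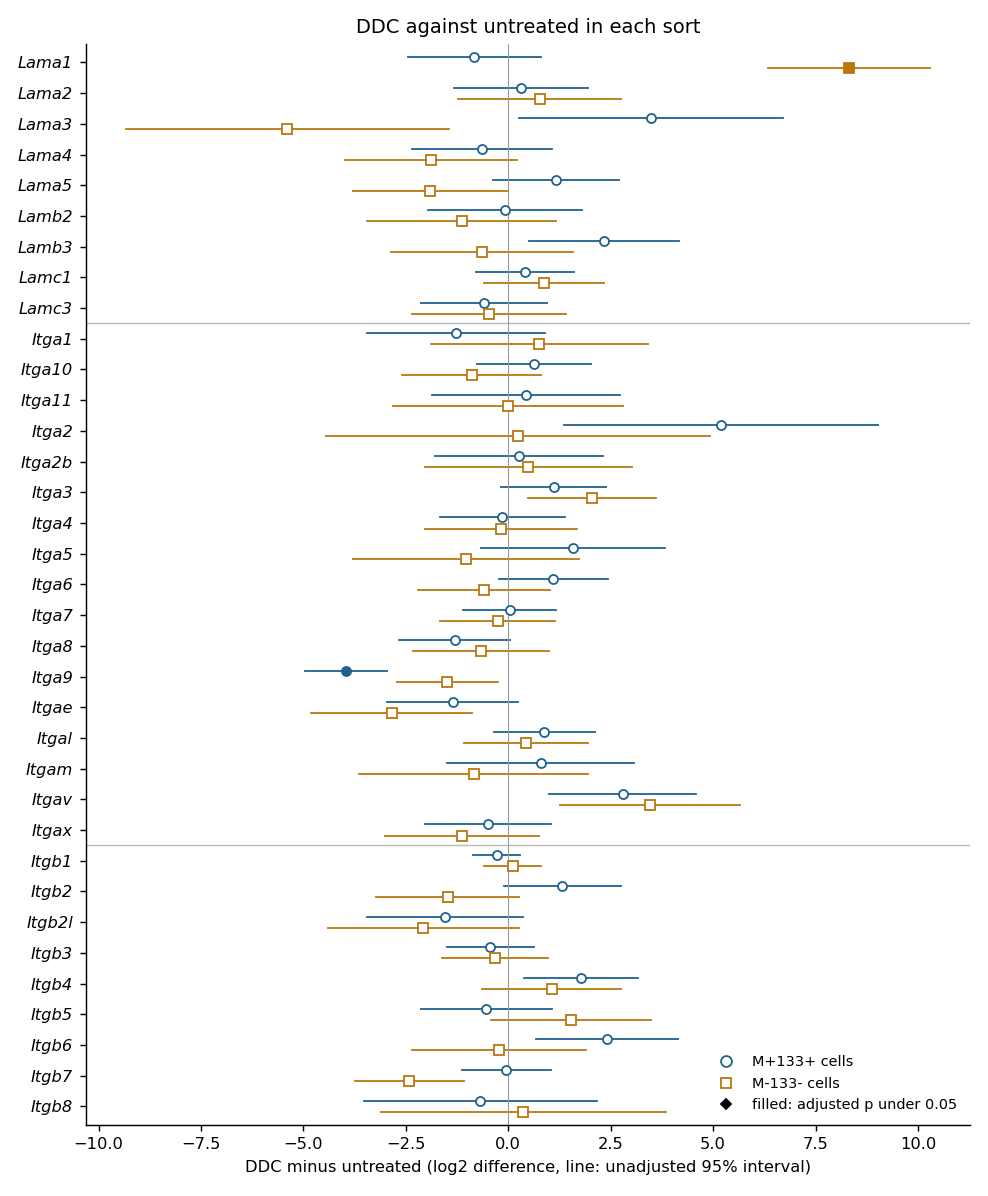
Log2 difference of DDC minus untreated livers for 35 laminin and integrin chains, in M+133+ cells (circles) and in M-133- cells (squares), with unadjusted 95% intervals; filled symbols were called. Only Lama1 in M-133- cells, at 8.31, and Itga9 in M+133+ cells, at -3.96, are filled.

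Apart from these, DDC differences stayed below the threshold in both sorts. The widest of them in M+133+ cells was that of Itga2, at 5.20 (SE 1.79, adjusted p = 0.241). In M-133- cells it was that of Lama3, at -5.39 (SE 1.85, adjusted p = 0.211). Among the 36 chains 20 of the M+133+ differences were positive and 16 negative (median 0.21, against 0.06 for all genes), and 13 of the M-133- differences were positive and 23 negative (median -0.38, against -0.36 for all genes). On the probes used in the tests, chains of the hemidesmosomal laminin and of its receptor were higher in M+133+ DDC than in M+133+ untreated group means without passing: Lama3 by 3.48 (SE 1.51, adjusted p = 0.362), Lamb3 by 2.34 (SE 0.85, adjusted p = 0.266), Itgb4 by 1.77 (SE 0.65, adjusted p = 0.27) and Itga6 by 1.10 (SE 0.62, adjusted p = 0.494). Not every probe went that way. The other Lama3 probe had a lower mean after DDC, with -5.51 to -0.74 in M+133+ untreated and -6.50 to -3.59 in M+133+ DDC samples. So did the dimmest Itgb4 probe, with -3.33 to 0.28 and -5.98 to -2.96. The remaining Itgb4 and Itga6 probes had higher means after DDC.

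No comparison called any of the remaining 12 integrin chains. Leukocyte chains made up most of them: Itgal, Itgam and Itgax, which pair with Itgb2, Itgae and Itga4, which pair with Itgb7, and Itgb2l, a relative of Itgb2. On the probes used in the tests, their sort differences ran from -1.84 (Itgb7, SE 0.62, adjusted p = 0.0889) to 0.30 (Itgal) in untreated livers. In DDC livers they ran from 0.07 (Itga4) to 1.29 (Itgb2, SE 0.67, adjusted p = 0.243). Dimmer probes of Itgal and Itga4, not used in the tests, set the untreated sorts apart. On them Itgal read -9.22 to -8.11 in M+133+ against -3.73 and -5.76 in M-133- samples, and Itga4 -8.99 to -7.87 against -3.29 and -6.60. No M+133+ untreated sample was well above background on these probes, and after DDC the sorts overlapped on them. Macrophage markers averaged -5.36 to -1.48 in M+133+ and -4.36 to -0.78 in M-133- samples, and T and NK cell markers -6.56 to -5.17 and -6.88 to -5.11. Itga2b, the platelet chain, differed by 0.24 and 0.02. Itga5, the fibronectin receptor chain, differed by -0.33 (SE 1.29) and 2.29 (SE 1.05, adjusted p = 0.186), Itga10, a collagen receptor chain of cartilage, by 0.06 and 1.57 (SE 0.65, adjusted p = 0.137), and Itga11, that of fibroblasts, was above background on 2 of the 4 M-133- DDC arrays alone.

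Of the genes that are no integrin chains, Itgbl1, which encodes a secreted protein with integrin beta-like EGF repeats, was measured in M-133- cells only. It read -4.19 and -3.33 in M-133- untreated and -1.56, -2.51, -4.93 and -2.00 in M-133- DDC samples, and no M+133+ array was well above background (-8.87 to -7.67 untreated and -8.82 to -7.76 after DDC). The differences were -4.68 (SE 0.92, adjusted p = 0.00487), or at least 9.37-fold lower, and -5.74 (SE 0.75, adjusted p = 0.000133), or at least 15.9-fold lower, in M+133+ cells. With normexp they were -2.17 (adjusted p = 0.0655, not called) and -2.04 (adjusted p = 0.0234), both smaller than those bounds. The untreated call was also lost without M-133- sample 2 (adjusted p = 0.06). Itgb1bp1, a cytoplasmic partner of the beta 1 tail, differed by -2.94 (SE 0.78, adjusted p = 0.0204) after DDC, but its second probe gave 1.56, and the mean of both probes was not called (adjusted p = 0.443); with the slide as a fixed block it was -5.50 (adjusted p = 0.00906). It was also lost without M+133+ DDC sample 1 (0.0524), M-133- DDC sample 1 (0.0528) or 4 (0.0563). Itgb3bp, a centromere protein, and Itgb1bp3, the nicotinamide riboside kinase gene now named Nmrk2, were not called.

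**Figure D5:**
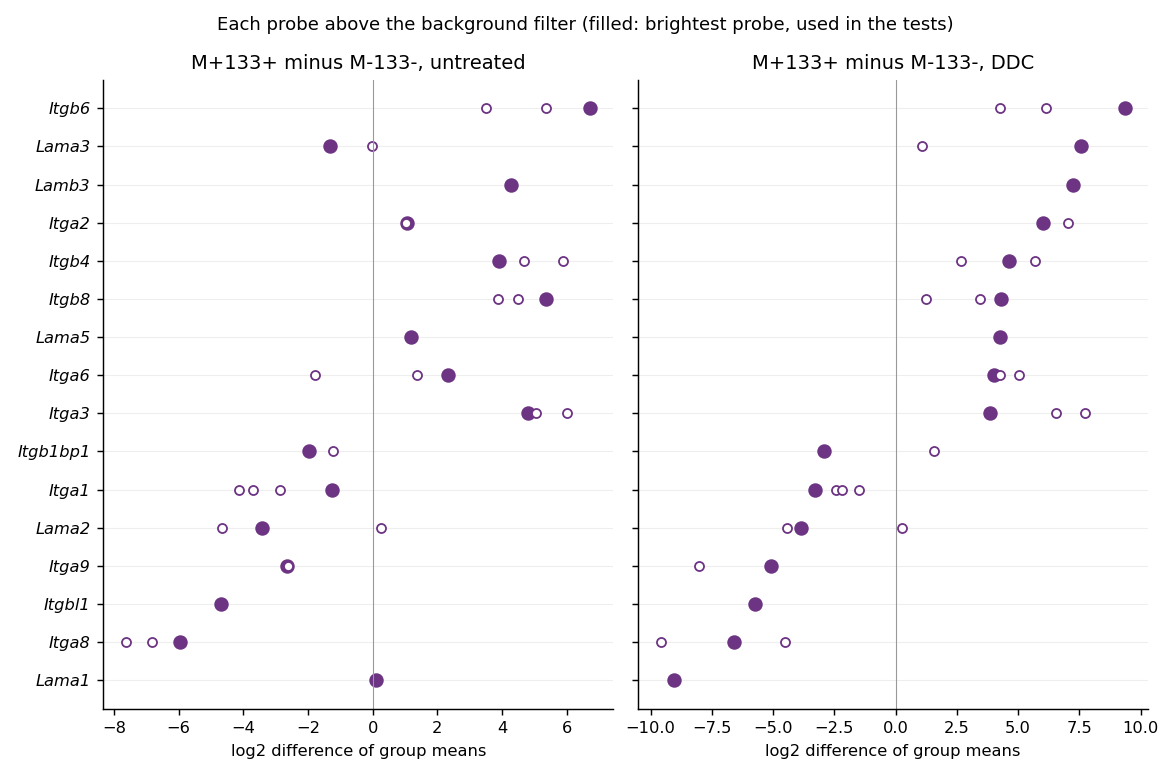
Log2 difference of M+133+ minus M-133- group means for each probe that passed the background filter, in untreated (left) and DDC livers (right), for 16 of the genes called in at least 1 sort comparison; the filled point is the brightest probe, used in the tests. Probes of Itga3, Itgb4, Itgb6, Itga8 and Itga9 lie on 1 side of 0, while Lama2 has a probe near 0 and Itgb1bp1 has probes on both sides after DDC.

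Where a called gene had several usable probes, they mostly gave the same sign: all of them did for 6 of 7 such genes in the untreated and 11 of 13 in the DDC sort comparison. The exceptions were Lama2 in both and Itgb1bp1 after DDC. Within the 2 slides that held both untreated sorts, each by 1 array of either sort, all 9 called genes kept their sign. No slide held both sorts from DDC livers, so there the slide could be separated from the sort only through a block fitted over all groups.

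RefSeq promoter windows on GRCm38.p6 were found for 26 of the 41 genes, and for 7 of the 9 genes called in both treatments. They are printed for Lamb3, Itga3 and Itgb6, which were higher in M+133+ cells, and for Itga8 and Itga9, which were lower, as examples from either side; those of Lama2 and Itgbl1, also lower, are not printed. Each is the 250 bases before the start site, 5′ to 3′ on the gene's strand, with any GC box (GGGCGG, either strand), AP-1 motif (TGANTCA) or TATA box (TATAAA, either strand) in capitals; the AP-1 motif reads the same on both strands and no match overlapped another motif.
Lamb3: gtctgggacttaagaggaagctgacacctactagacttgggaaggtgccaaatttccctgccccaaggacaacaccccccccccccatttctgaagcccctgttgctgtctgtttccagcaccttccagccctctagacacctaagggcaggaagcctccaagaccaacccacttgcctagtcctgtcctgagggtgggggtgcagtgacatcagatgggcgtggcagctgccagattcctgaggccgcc
Itga3: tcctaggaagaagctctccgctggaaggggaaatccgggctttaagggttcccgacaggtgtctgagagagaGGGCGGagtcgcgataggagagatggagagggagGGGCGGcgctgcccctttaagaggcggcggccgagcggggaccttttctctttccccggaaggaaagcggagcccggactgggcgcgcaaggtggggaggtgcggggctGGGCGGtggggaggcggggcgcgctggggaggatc
Itgb6: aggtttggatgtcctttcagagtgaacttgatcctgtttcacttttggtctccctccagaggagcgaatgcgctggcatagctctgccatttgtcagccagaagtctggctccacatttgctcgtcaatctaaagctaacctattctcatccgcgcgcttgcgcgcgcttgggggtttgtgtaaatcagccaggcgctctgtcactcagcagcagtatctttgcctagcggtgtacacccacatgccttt
Itga8: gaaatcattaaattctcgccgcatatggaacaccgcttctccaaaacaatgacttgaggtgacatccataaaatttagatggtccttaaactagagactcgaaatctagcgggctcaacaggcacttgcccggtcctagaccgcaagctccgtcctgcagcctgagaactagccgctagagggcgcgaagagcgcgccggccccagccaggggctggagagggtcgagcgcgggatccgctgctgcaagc
Itga9: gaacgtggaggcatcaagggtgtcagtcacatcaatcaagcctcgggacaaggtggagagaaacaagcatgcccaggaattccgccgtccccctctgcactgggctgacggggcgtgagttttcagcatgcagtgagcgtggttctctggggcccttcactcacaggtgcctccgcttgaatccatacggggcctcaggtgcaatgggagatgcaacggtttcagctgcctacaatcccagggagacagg
The windows lie at chr1:193301744-193301993 on the plus strand (Lamb3), chr11:95076715-95076964 on the minus strand (Itga3), chr2:60722604-60722853 on the minus strand (Itgb6), chr2:12301945-12302194 on the minus strand (Itga8) and chr9:118711442-118711691 on the plus strand (Itga9). Itga3 held 3 GC boxes and the other windows printed held none of the 3 motifs. Among the 7 genes, 2 (Itga3 and Itgbl1) held a GC box and 0 held an AP-1 motif or a TATA box. Over all 32851 windows of that length the shares were 32.7% with a GC box, 6.75% with an AP-1 motif and 12.4% with a TATA box. These are matches of letters in 1 window per gene.

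Other components of the basement membrane also split between the sorts. Of 22 such genes the M+133+ sort of untreated livers had 6 called higher and 3 lower, and that of DDC livers 6 and 6 (medians 0.79 and 0.49). Of all genes 3.62% were called higher and 5.17% lower in untreated livers, and 6.43% and 6.48% in DDC livers (medians -0.07 and 0.31). Fras1, an epithelial basement membrane protein, was higher by 9.81 (SE 0.77, adjusted p = 5.09e-06) and 8.53 (SE 0.63, adjusted p = 9.04e-07), and its partner Frem2 by 8.39 in untreated livers (SE 0.96, adjusted p = 0.000111). Lad1, an anchoring filament protein, was higher by 7.71 after DDC (SE 1.15, adjusted p = 0.000409), as was Npnt, the alpha 8 ligand nephronectin, by 7.52 (SE 2.02, adjusted p = 0.0225). The laminin-binding nidogens were lower, Nid2 by -8.31 (SE 0.96, adjusted p = 0.000117) and -7.58 (SE 0.78, adjusted p = 1.98e-05) and Nid1 by -5.57 in untreated livers (SE 0.79, adjusted p = 0.00052). DDC called only Efemp1, in M-133- cells, by 2.29 (SE 0.47, adjusted p = 0.0305).

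Of 13 other laminin receptors and hemidesmosome or tetraspanin partners, 3 were higher in M+133+ untreated cells and 2 in M+133+ DDC cells, and none was lower. The shares of all genes were 3.62% and 6.43% called higher, and 5.17% and 6.48% called lower. Tspan8, a tetraspanin that associates with integrins, was higher by 10.48 (SE 0.85, adjusted p = 6.02e-06) and 3.85 (SE 0.70, adjusted p = 0.00176). Krt8 and Krt18, simple-epithelial keratins, were higher in untreated livers by 3.24 (SE 0.38, adjusted p = 0.000118) and 1.81 (SE 0.28, adjusted p = 0.000933). Bcam, a receptor for the Lama5 chain, was higher after DDC by 4.27 (SE 1.18, adjusted p = 0.0256). Tspan8, Krt8 and Krt18 rose with DDC in M-133- cells, by 7.37 (SE 0.85, adjusted p = 0.000624), 3.55 (SE 0.38, adjusted p = 0.000349) and 2.07 (SE 0.28, adjusted p = 0.00196), and their interactions of -6.63, -2.95 and -1.95 were called (adjusted p = 0.0237, 0.0237 and 0.0384). The bile duct list averaged -3.61 and -2.58 in M-133- untreated and -2.34 to -1.02 in M-133- DDC samples, with 2 of 10 called higher. In that comparison 0.613% of all genes were called higher. The part of the bile duct list in the rises of Tspan8, Krt8 and Krt18 was not tested.

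Inside the cell, 3 of 24 adhesion adaptors and kinases were called in untreated livers (2 higher, 1 lower) and 4 of 24 after DDC (2 higher, 2 lower). Of all genes 8.79% were called in untreated livers (3.62% higher, 5.17% lower) and 12.9% after DDC (6.43% higher, 6.48% lower). Fermt1, the epithelial kindlin that activates integrins, was higher in M+133+ cells by 7.51 (SE 0.84, adjusted p = 9.2e-05) and 8.81 (SE 0.69, adjusted p = 1.71e-06). Fermt2, the kindlin of mesenchymal cells, was lower by -3.11 after DDC (SE 0.56, adjusted p = 0.0016), as was Lims2, a partner of integrin-linked kinase, by -3.91 (SE 0.70, adjusted p = 0.00168). Ptk2b, a focal adhesion kinase relative, was higher by 2.72 (SE 0.72, adjusted p = 0.0275) and 4.70 (SE 0.58, adjusted p = 8.97e-05). Fyn, a Src-family kinase, was lower by -6.15 in untreated M+133+ cells (SE 1.00, adjusted p = 0.00135) and fell by 5.16 with DDC in M-133- cells (SE 1.00, adjusted p = 0.0232).

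Among 24 integrin ligands other than laminins, 4 were higher and 7 lower in untreated M+133+ cells, and 1 and 10 after DDC. The shares of all genes were 3.62% higher and 5.17% lower in untreated livers, and 6.43% and 6.48% after DDC. Spp1, osteopontin, was higher by 10.45 in untreated livers (SE 0.81, adjusted p = 4.85e-06) and rose by 8.78 with DDC in M-133- cells (SE 0.81, adjusted p = 9.35e-05), with an interaction of -8.78 (SE 1.04, adjusted p = 0.00208); it also belongs to the bile duct list. The fibrillar collagen genes Col1a1, Col1a2 and Col3a1 were lower in both treatments, by -6.31, -6.99 and -6.28 in untreated (adjusted p = 0.0245, 0.029 and 0.000393) and -5.70, -6.00 and -6.21 in DDC livers (adjusted p = 0.00943, 0.0159 and 3.87e-05); Col1a1 and Col3a1 belong to the stellate cell list too. Postn, periostin, had the largest sort difference of the list after DDC, -8.99 (SE 0.82, adjusted p = 7.16e-06). Vcam1, a ligand of the alpha 4 chain, rose with DDC in M+133+ cells by 2.33 (SE 0.36, adjusted p = 0.02).

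The authors' deposited table, which holds fold changes and false discovery rates for the 4 comparisons between groups, gave the same direction for every one of these calls on laminin and integrin genes. In the authors' deposited table the false discovery rate was at most 1.48% for the 9 genes called here in untreated livers. It was under 5% for 14 of the 17 called in DDC livers, and the authors' deposited table gave 5.17% for Itga2, 5.17% for Itgb1bp1 and 13.96% for Itgb8. Some chains not called here between untreated sorts were also under 5% in the authors' deposited table. These were Itgb8 (0.31%), Itga6 (1.48%), Itgav (1.75%), Itgb7 (1.75%), Itga11 (2.19%) and Itgb5 (3.23%).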

How the data were processed

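Per the file headers, the deposited spot intensities were extracted from 1-colour Cy3 scans with Agilent Feature Extraction 10.5.1.1, which subtracts background and detrends within an array; normalization beyond that is not given there. From these, log2 of the processed signal minus each array's 75th percentile was taken, spots of a probe and repeat arrays of a sample were averaged, and a probe was kept if well above background in at least 0.5 of the samples of 1 group. The brightest kept probe stood for a gene. Names came from RefSeq by accession for 26795 of 41174 probes, by symbol for 5122 and by synonym for 929, and 8328 kept the array's name.

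One limma model (version 3.58.1, R 4.3.3, lmFit and eBayes with an intensity trend, 10 residual degrees of freedom) covered the 14 samples, with Benjamini-Hochberg adjustment over 23312 genes; it was tested on simulated data. An "at least" fold sets the brighter group's mean against the lowest signal well above background. The authors' deposited table gives signed fold changes and false discovery rates; the submitters' processing notes list limma without a role.

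Every laminin and integrin gene is named except 1, which is counted but not reported here. Sample values are given for laminin chains, laminin receptors and called chains, and other values by range; other genes are the up to 4 largest called differences per list. Members and lists were chosen with earlier results of these data known. Background correction, scaling, filter, probe choice, blocks and each sample were varied in turn.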

Additional observations from a re-analysis of the deposited data

Results flagged for a closer look

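In 11 of the 120 sets of 4 samples examined (a gene in a group), 1 sample stood apart from the other 3 by a gap over Dixon's critical share of the whole range; chance flags about 1 in 20 such sets. Among M+133+ DDC samples, Itga3 was low in 1 sample at 1.79 and Itgb1 at 3.21, while Itga7 was high in 1 sample at -0.15, and so were Itgbl1 at -7.76 and Lama1 at -7.89, neither of them well above background. Among M-133- DDC samples, Itga3 was low in 1 sample at -2.89, Itga6 at -2.53 and Itgb5 at -1.75, and Itgb6 was high in 1 sample at -5.93. Among M+133+ untreated samples, Itga8 was high in 1 sample at -0.47 and Itgae at -2.68.

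The DDC difference of Lama1 differed between the sorts by -9.15 in limma's interaction term (SE 1.20, adjusted p = 0.00436).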

How the results depend on the processing

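Leaving out 1 sample at a time, the number of laminin and integrin genes called between untreated sorts ranged from 5 to 10 (main 9; 5 without M-133- untreated sample 2, 6 without sample 1), that between DDC sorts from 13 to 16 (main 17), and that of each DDC comparison and of the interaction stayed at 1. With the slide as a fixed block, 11 were called between DDC sorts. For DDC in M-133- cells, 2 were called with the slide as a random block and 2 with no intensity trend. The interaction called 0 with normexp and 2 where a gene's probes were averaged. With normexp the untreated split was 4 higher and 2 lower, against 5 and 4.

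Over all genes, the calls ranged in the other settings from 1525 to 2972 (untreated sorts), 1221 to 3448 (DDC sorts), 20 to 136 (DDC in M+133+), 34 to 575 (DDC in M-133-) and 19 to 118 (interaction), and in the fits without 1 sample from 817 to 2207, 2400 to 2963, 6 to 114, 73 to 283 and 18 to 105. Normexp moved the median of all genes to -0.525, 0.247, 0.0863, -0.765 and 0.761 in these comparisons, and quantile normalization to 0.0121, -0.0259, 0.0212, 0.0582 and -0.0238. None of the called member differences changed sign in these settings; differences that were not called were not followed this way.

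Same-numbered samples of different groups did not deviate together (correlations from -0.062 to 0.0271), and with the replicate block the calls were 9, 17, 1, 1 and 1. A number that leads the sample titles, with no stated meaning, is shared by 1 sample of each DDC sort in 4 cases and by 2 untreated pairs. Samples that share it correlated at -0.0128 to 0.113, not over 0.1 in every pair, so neither number was taken to pair samples. With it as a random block (consensus correlation 0.0983) the calls were 10, 17, 1, 1 and 1. Probes near background bound what can be said of Lama1, Lama3, Itgb6 and Itgbl1 where they were dim. The cause of these changes was not tested.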
